A study of Mus musculus with 15 samples.

Results

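The genes described here encode the voltage-gated calcium channels and their auxiliary subunits, the HCN channels, the anoctamins, the CLC chloride channels and exchangers, and the calcium-release channels of the endoplasmic reticulum. They were chosen by name: protein-coding symbols that start with Cacn, or with Hcn, Ano, Clcn or Itpr and a digit, together with Ryr2 and Ryr3 and without the muscle subunits Cacna1s and Cacng1. This gave 50 of the 55573 genes in the table, and the 38 with a mean of at least 10 counts over the 15 samples are reported. The other 12 fell below that minimum. The reported genes nearest to the minimum were Ano5 (mean 10.9 counts) and Cacng7 (13.1), and the nearest below it were Cacna1i (7.93), Cacnb2 (6.73) and Cacna1g (6.07). The 38 genes comprised 6 pore-forming Cacna1 genes, 3 Cacna2d, 3 Cacnb and 4 Cacng genes, 4 Hcn genes, 7 Ano genes, 6 Clcn genes, and 5 Itpr and Ryr genes.

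RNA was sequenced from mouse trigeminal ganglia (TG), which hold the cell bodies of the sensory neurons that innervate the cornea. Male CD1 mice, 10 weeks old according to the methods of the study, had a 2 mm wound made in the right cornea, with removal of the epithelium and anterior stroma. The eye was then treated 3 times a day with vehicle, with RvD6 (resolvin D6, a lipid mediator made from docosahexaenoic acid) or with RvD6si, a stereoisomer of RvD6 (n = 5 each). The ganglia on the injured side were taken on day 12. All 3 groups were injured, so vehicle is an injured control, and uninjured ganglia were not analysed here. The concentrations of the lipids in this experiment are not given in the sources used here. The labels number the samples 1 to 15 and do not state that each is a different mouse, so p-values measure the spread between these samples. Total counts were 4125962 to 9903396 per sample (median 7756538).

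The whole ganglion holds neurons, glia and other cells, and in such bulk samples fewer cells of a type and less RNA per cell cannot be told apart. All 11 sensory neuron markers were detected in every group. Their summed level (in normalised counts, that is counts divided by DESeq2 size factors) was 66063 to 78469 in vehicle, 35831 to 76687 in RvD6 and 63145 to 81403 in RvD6si samples. RvD6 replicates 9 and 10 had the lowest sums, and 10 of the 11 markers were lower in RvD6 than in vehicle (median log2 fold change -0.32, 0 called by edgeR, 4 at an unadjusted p below 0.05). The RvD6 samples also had higher sums of 14 skeletal muscle markers (1437 to 30809, against 365 to 1616 in vehicle and 280 to 666 in RvD6si) and of 6 erythroid markers (41438 to 76359, against 17138 to 36224 in vehicle and 6777 to 85960 in RvD6si). RvD6si replicate 15 had the highest erythroid sum of all samples. All 8 granulocyte markers had a positive log2 fold change in RvD6 against vehicle (median 2.57, 8 at an unadjusted p below 0.05, 0 called), with sums of 5612 to 18258 against 958 to 4815, and of 455 to 15492 in RvD6si. So did the 6 smooth muscle and pericyte markers tested (median 1.01) and the 5 fibroblast markers (median 0.64), each with 2 at an unadjusted p below 0.05 and 0 called. In RvD6si the summed level of the 5 satellite glia markers was 45620 to 63608, without overlap with the 64939 to 78645 of vehicle samples. It was 52718 to 66378 in RvD6 samples. Of these 5 markers 4 were lower in RvD6si than in vehicle, and 2 of the 5 had an unadjusted p below 0.05. Of 7 Schwann cell markers 5 were higher and 2 lower in RvD6si than in vehicle, 3 of the 7 at that p. The part of these cell types in the results was not tested beyond the fits with the neuron and skeletal muscle marker scores. The skeletal muscle score was 0.15 to 4.53 in RvD6, -2.04 to 0.44 in vehicle and -2.32 to -0.99 in RvD6si samples. RvD6 samples share little or none of this range with the other groups, so RvD6 fold changes fitted with the score are extrapolated. The sensory neuron score was -0.64 to 0.08 in RvD6, -0.02 to 0.21 in vehicle and 0.05 to 0.22 in RvD6si samples. These ranges share little too, so RvD6 fold changes fitted with the neuron score are partly extrapolated.

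Voltage-gated calcium channels open on depolarisation and let calcium into the soma and the nerve terminal, where it drives transmitter release. HCN channels carry a hyperpolarisation-activated cation current that sets resting potential and firing rate, and are known for their part in repetitive firing and pain. Anoctamins include calcium-activated chloride channels and lipid scramblases, and most CLC proteins in neurons are chloride/proton exchangers of endosomes and lysosomes. IP3 receptors and ryanodine receptors release calcium from the endoplasmic reticulum.

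One channel gene, Clcn3, passed the threshold, and in 1 of the 3 comparisons, with a higher level under RvD6si than under vehicle. Cacna2d3 was lower in all 5 RvD6 samples than in every vehicle and every RvD6si sample, differences that edgeR placed outside the threshold and DESeq2 inside it. The 5′ flanks of these genes are printed because theirs are the groups that separated most clearly. Each is the 250 bases before the annotated start, from RefSeq (GRCm38.p6), written 5′ to 3′ in the direction of the gene, both on the minus strand. Clcn3 has 2 annotated starts, of which the first listed is shown. Capitals mark matches on either strand to the motifs searched, which were CCAAT (the CCAAT box), GGGCGG (the GC box), TATAAA (the TATA box), TGACGTCA (the cyclic AMP response element) and CACGTG (the E-box). No matches overlap in these 2 flanks.
Clcn3, chr8:60983312-60983561: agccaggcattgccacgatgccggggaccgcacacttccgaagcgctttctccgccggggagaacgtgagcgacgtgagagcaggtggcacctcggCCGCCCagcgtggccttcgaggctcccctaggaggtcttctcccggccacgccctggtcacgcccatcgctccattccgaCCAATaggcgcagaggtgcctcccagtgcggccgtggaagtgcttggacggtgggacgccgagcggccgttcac
Cacna2d3, chr14:29721865-29722114: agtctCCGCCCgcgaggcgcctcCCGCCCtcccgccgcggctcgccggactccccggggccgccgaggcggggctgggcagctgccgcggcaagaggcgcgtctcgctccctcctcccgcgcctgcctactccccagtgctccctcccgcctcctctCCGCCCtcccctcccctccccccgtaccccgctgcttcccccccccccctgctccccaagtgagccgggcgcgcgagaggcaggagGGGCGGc
The Clcn3 flank held 1 CCAAT box and 1 GC box and the Cacna2d3 flank 4 GC boxes, at 68.4% and 80% G and C. Of the 38 genes, 30 matched a RefSeq entry, with 43 starts between them. A GC box was present in 53.5% of these 43 flanks and in 32.7% of the 32841 flanks of all genes, a CCAAT box in 27.9% and 33.9%, a TATA box in 6.98% and 12.4%, the cyclic AMP response element in 2.33% and 1.55%, and the E-box in 11.6% and 6.02%. The median G and C content was 63.2% for the channel genes and 52.4% for all. These are matches of letters. The RNA counts do not measure activity at these sequences.

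To compare levels between genes, normalised counts were divided by the length of each gene's annotated exons in kilobases (kb). The channel genes spanned a wide range on this scale, and 12 of the 38 lay above the median of all genes tested (30.9 per kb). The highest was Cacnb3, which encodes a cytoplasmic β subunit that carries calcium channels to the membrane, at 296 ± 66.1 per kb (SD over 15 samples). Clcn4, an endosomal chloride/proton exchanger, followed at 231 ± 38, and Ano3, an anoctamin of sensory neurons, at 148 ± 42.2. Cacnb4 (91.1 ± 14.0), Clcn3 (67.8 ± 11.2), Clcn7 (67.5 ± 11.8) and Ano10 (65.6 ± 21.5) came next, and the levels of the last 3 did not differ beyond their spread. The lowest was Cacna1e, the R-type pore, at 1.05 ± 0.985 per kb.

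**Figure D1:**
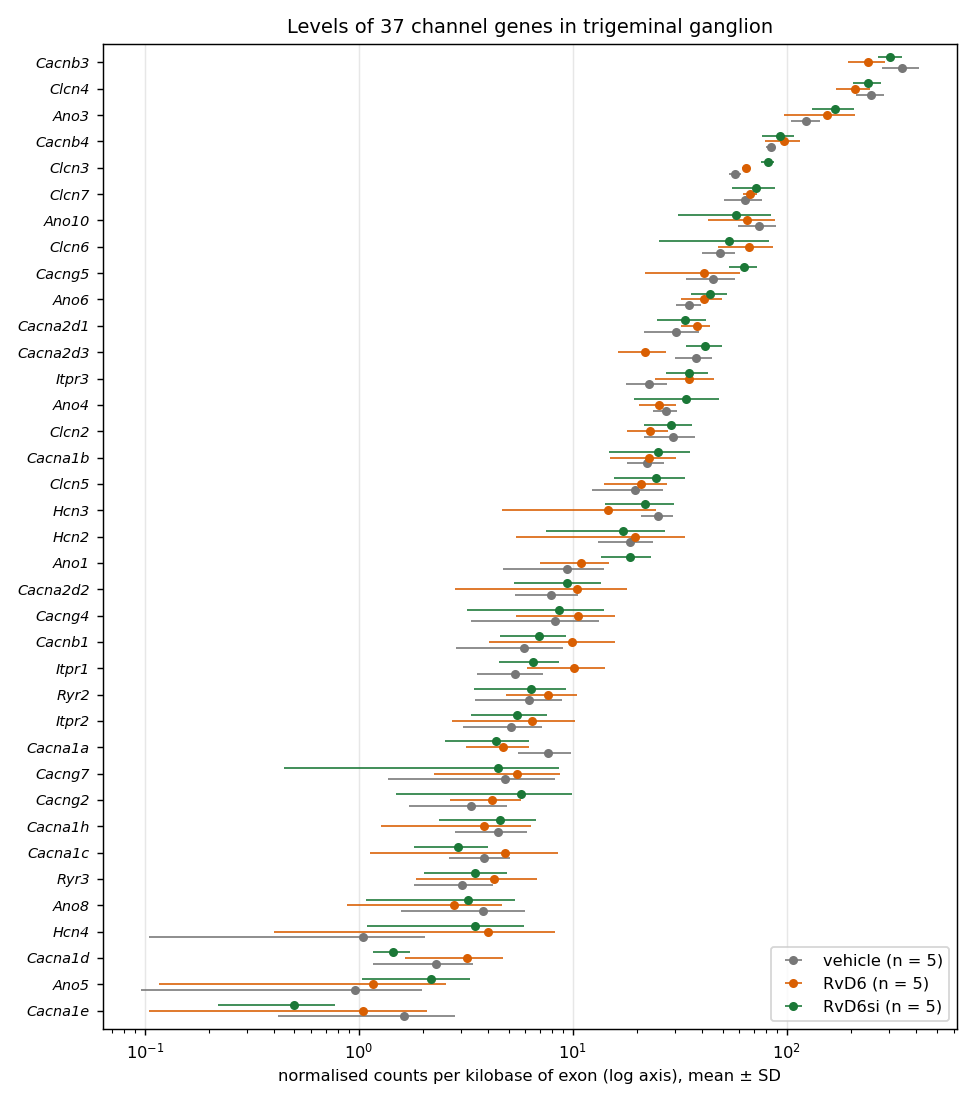
Levels of 37 of the 38 channel genes in normalised counts per kilobase of exon, on a log axis, ordered by the mean over 15 samples. Points are group means and bars the SD (n = 5); the lower bar is cut short of 0 where the SD nears or exceeds the mean. Cacnb3, Clcn4 and Ano3 lie at the top in all 3 groups, and the RvD6 mean of Cacna2d3 lies below its vehicle and RvD6si means.

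Within each family, 1 or 2 genes took most of the level per kb. Cacna1b, the N-type pore of presynaptic terminals and a target of analgesic toxins, held 57.1% of the Cacna1 total on average (45.9% to 74.0% over the 15 samples). Cacna1a, the P/Q-type pore, held 14.2%, and Cacna1h, the T-type pore of low-threshold sensory neurons, 11.1%. The L-type genes Cacna1c and Cacna1d held 9.21% and 5.91%. Of the β subunits, Cacnb3 held 74.3%. Of the Cacng genes, Cacng5, which encodes an auxiliary subunit of AMPA receptors, held 72.1%.

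Cacna2d1 and Cacna2d3 shared the α2δ total almost evenly, at 44.6% and 43.6%. The α2δ proteins are extracellular subunits that bring calcium channels to the terminal, and the one encoded by Cacna2d1 binds gabapentin. Ano3 held 48.7% of the anoctamin total and Clcn4 48.9% of the CLC total. Itpr3, an IP3 receptor, held 56.4% of the calcium-release total, with Itpr1 at 13.5% and the ryanodine receptor Ryr2 at 12.6%. When levels were divided by the longest annotated transcript in place of all exons, Cacna1b held 48.1%, Ano3 33.1% and Itpr3 45.4%. Each remained first in its family, and Cacna2d3 (52.7%) then exceeded Cacna2d1 (38.8%).

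With 5 samples a group, the genes differed widely in how much they varied. The SD over all 15 samples, which includes differences between the groups, was 15.4% of the mean for Cacnb4 and 16.5% for both Clcn3 and Clcn4. It reached 104% for Hcn4. Within the vehicle, RvD6 and RvD6si groups the SD was 6.4%, 3.98% and 6.84% of the mean for Clcn3. The same 3 values were 14.6%, 18.1% and 14.7% for Clcn4, and 4.65%, 18.6% and 16.9% for Cacnb4. The median over the 38 genes was 40.5% for the SD over all 15 samples. Of the 38 genes, 20 had a mean of at least 100 counts.

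RvD6si was first compared with vehicle. Of the 38 channel genes, 1 was called by edgeR at an adjusted p below 0.05 (2.63%), against 111 of the 16567 genes tested (0.67%). DESeq2 called the same gene, 1 of the 29 channel genes to which it gave an adjusted p, against 7.57% of all genes. At an unadjusted p below 0.05, 4 channel genes were higher (10.5%), against 8.69% of all genes, and 1 was lower (2.63%), against 7.3%. The RvD6si and vehicle samples did not overlap for 2 channel genes (5.26%), against 4.88% of all genes. The shares of higher and of non-overlapping genes lay near those of all genes.

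The gene called was Clcn3, which encodes ClC-3, a chloride/proton exchanger of endosomes and synaptic vesicles (ENSMUSG00000004319.15, GRCm38 chr8:60910389-60983300, minus strand). Its normalised counts were 958, 1042, 1032, 887 and 985 in vehicle, 1051, 1161, 1072, 1083 and 1122 in RvD6, and 1431, 1383, 1447, 1232 and 1471 in RvD6si samples. All 5 RvD6si samples lay above all 10 others, and the RvD6 samples lay between the other groups without overlap, the lowest RvD6 sample only just above the highest vehicle sample. The group means were 981 ± 62.7, 1098 ± 43.7 and 1393 ± 95.3 (SD, n = 5). Clcn3 was 1.42 times as high in RvD6si as in vehicle samples (log2 fold change 0.50, SE 0.10, adjusted p = 0.0348 by edgeR and 5.74e-06 by DESeq2). For RvD6 against vehicle the log2 fold change was 0.15 (SE 0.10, edgeR adjusted p = 0.561).

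Clcn3 is a long gene, with 17071 bases of exon. After a correction for gene length within each sample its log2 fold change in RvD6si against vehicle was 0.37 (edgeR adjusted p = 0.206), and with a score of skeletal muscle markers in the model it was 0.48 (adjusted p = 0.0552). Leaving out any vehicle sample, or RvD6si replicate 11, 13, 14 or 15, also ended the call (log2 fold change 0.47 to 0.54, adjusted p up to 0.102), as did testing all genes without a filter on low counts. The slope of expression on log2 gene length was -0.107 to 0.005 in vehicle and -0.008 to 0.141 in RvD6si samples. Its part in the difference beyond that correction was not tested.

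The other CLC genes did not pass the threshold. Clcn4, whose exons overlap the predicted gene Gm45631 on the opposite strand, had group means of 2119 ± 309 in vehicle, 1775 ± 321 in RvD6 and 2049 ± 301 in RvD6si samples, with overlap between all groups. Clcn5, an endosomal exchanger, Clcn6, a late endosomal one, Clcn7, the lysosomal exchanger, and Clcn2, a plasma membrane channel, had log2 fold changes in RvD6si against vehicle of 0.32, 0.13, 0.16 and -0.03. Among the anoctamins, Ano1 encodes a calcium-activated chloride channel that is known as a heat sensor of nociceptors. Its normalised counts were 72.1, 78.3, 57.8, 75.8 and 8.2 in vehicle, 66.4, 86.5, 26.6, 76.8 and 82.5 in RvD6, and 133, 93.5, 155, 79.7 and 114 in RvD6si samples. The lowest RvD6si sample lay just above the highest vehicle sample. The log2 fold change of Ano1 was 0.97 (SE 0.43, 95% interval 0.07 to 1.88), and its edgeR adjusted p was 0.272.

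Ano3 ranged from 774 to 1047 in vehicle, from 789 to 1806 in RvD6 and from 853 to 1537 in RvD6si samples, with overlap. Its log2 fold change in RvD6si against vehicle was 0.44 (SE 0.20, edgeR adjusted p = 0.299), and its exons overlap Muc15 on the opposite strand, whose reads cannot be told apart here. Ano6, a lipid scramblase, had a log2 fold change of 0.33 (adjusted p = 0.366) and Ano10 of -0.36 (adjusted p = 0.611). Cacna1a was the channel gene with an unadjusted p below 0.05 that was lower in RvD6si. It gave 132, 110.3, 69.8, 84.6 and 74.0 in vehicle samples, 52.4, 46.9, 85.5, 37.2 and 67.4 in RvD6, and 35, 62.3, 24.6, 77.6 and 69.9 in RvD6si samples. The groups overlapped, at log2 fold changes against vehicle of -0.81 (SE 0.34) for RvD6si and -0.72 (SE 0.34) for RvD6, with adjusted p = 0.244 and 0.364. Its exons overlap Gm16183 on the opposite strand.

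**Figure D2:**
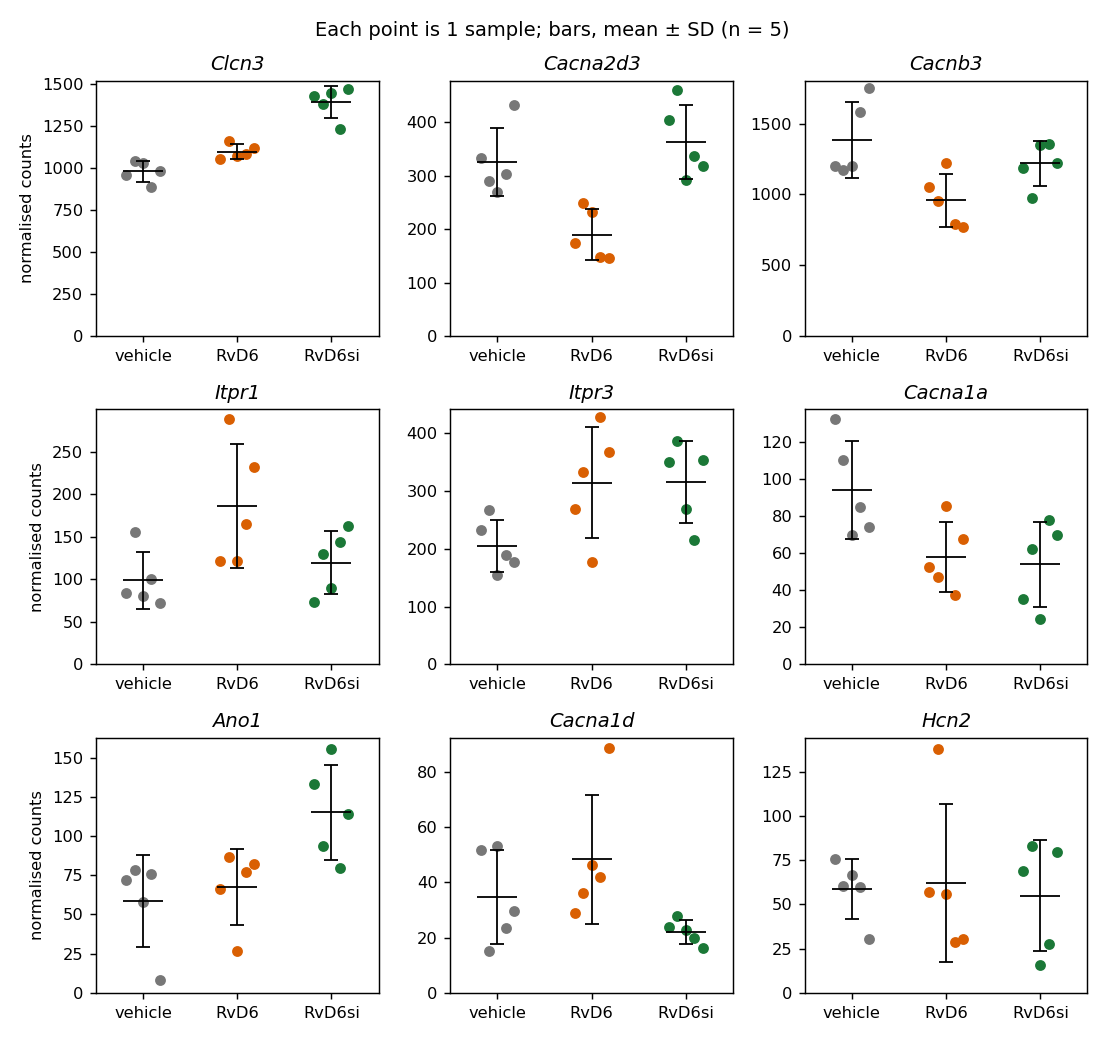
Normalised counts of 9 channel genes in each of the 15 samples, on linear axes that start at 0. Points are samples and the bars give the mean ± SD (n = 5). Clcn3 is highest in all 5 RvD6si samples, Cacna2d3 is lowest in all 5 RvD6 samples, and for Itpr3, Cacna1a and Hcn2 the groups overlap.

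RvD6 was then compared with vehicle, using the same 5 vehicle samples as the RvD6si comparison. edgeR called 0 of the 38 channel genes and 0 of all genes tested (0.0%). DESeq2 called 1 channel gene, Cacna2d3 (2.63%), against 1.92% of all genes. At an unadjusted p below 0.05, 3 channel genes were higher (7.89%), against 7.63% of all genes, and 3 were lower (7.89%), against 5.99%. The samples of 2 channel genes did not overlap between the groups (5.26%), against 3.72% of all genes. The 6 were Cacna1a, Cacna2d3 and Cacnb3, which were lower, and Hcn4, Itpr1 and Itpr3, which were higher.

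Cacna2d3 encodes α2δ-3, a subunit whose loss is known to alter responses to noxious heat (ENSMUSG00000021991.9, GRCm38 chr14:28904943-29721864, minus strand). Its normalised counts were 333, 290.0, 269.6, 304 and 433 in vehicle, 174, 249, 233, 149 and 146 in RvD6, and 405, 462, 292, 337 and 319 in RvD6si samples. Every RvD6 sample lay below every sample of the other groups, and the vehicle and RvD6si samples overlapped. The group means were 326 ± 64.3, 190 ± 47.9 and 363 ± 69.3 (SD, n = 5). For RvD6 against vehicle the log2 fold change was -0.80 (SE 0.20, 95% interval -1.21 to -0.38), with an adjusted p of 0.125 by edgeR and 0.0190 by DESeq2.

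Sensory neuron markers were lower in the same RvD6 samples, as given above. With a score of these markers as a term in the model, a setting chosen after the values were seen, the log2 fold change of Cacna2d3 was -0.47 (SE 0.23, edgeR adjusted p = 0.957). RvD6 and vehicle samples share few values of that score, so this value is partly extrapolated. Without RvD6 replicates 9 and 10 the log2 fold change was -0.60 (SE 0.22, adjusted p = 0.577), and without RvD6 replicate 7 and RvD6si replicate 12 it was -0.93 (SE 0.20, adjusted p = 0.0990). RvD6 replicate 8, whose summed neuron markers (76687) lay within the vehicle range, had 233 normalised counts of Cacna2d3, below the lowest vehicle sample. This is 1 sample, with a skeletal muscle score of 4.04 and the highest Nefm level of the 15 samples (21664.9). The part of neuron content in the Cacna2d3 difference was not tested beyond these fits. After the correction for gene length the log2 fold change of Cacna2d3 was -0.95 (adjusted p = 0.0916).

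Cacna2d1 did not follow Cacna2d3. It gave 536, 426, 355, 294 and 264 in vehicle, 402, 572, 399, 509 and 464 in RvD6, and 482, 558, 288, 346 and 403 in RvD6si samples, with overlap between all groups. Its log2 fold change was 0.31 (SE 0.21, adjusted p = 0.545) for RvD6 and 0.14 (SE 0.21, adjusted p = 0.798) for RvD6si against vehicle. The share of Cacna2d3 in the α2δ total was 49.9% ± 9.60 in vehicle, 31.2% ± 6.79 in RvD6 and 49.7% ± 3.42 in RvD6si samples (SD, n = 5). The highest RvD6 share, 43.0%, exceeded the lowest vehicle share, 41.6%, and stayed below the lowest RvD6si share, 47.0%. Cacna2d1 held 54.7% ± 8.39 in RvD6, against 39.7% ± 7.70 in vehicle and 39.4% ± 2.35 in RvD6si samples. Cacna2d2, also a gabapentin-binding subunit, held the rest.

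**Figure D3:**
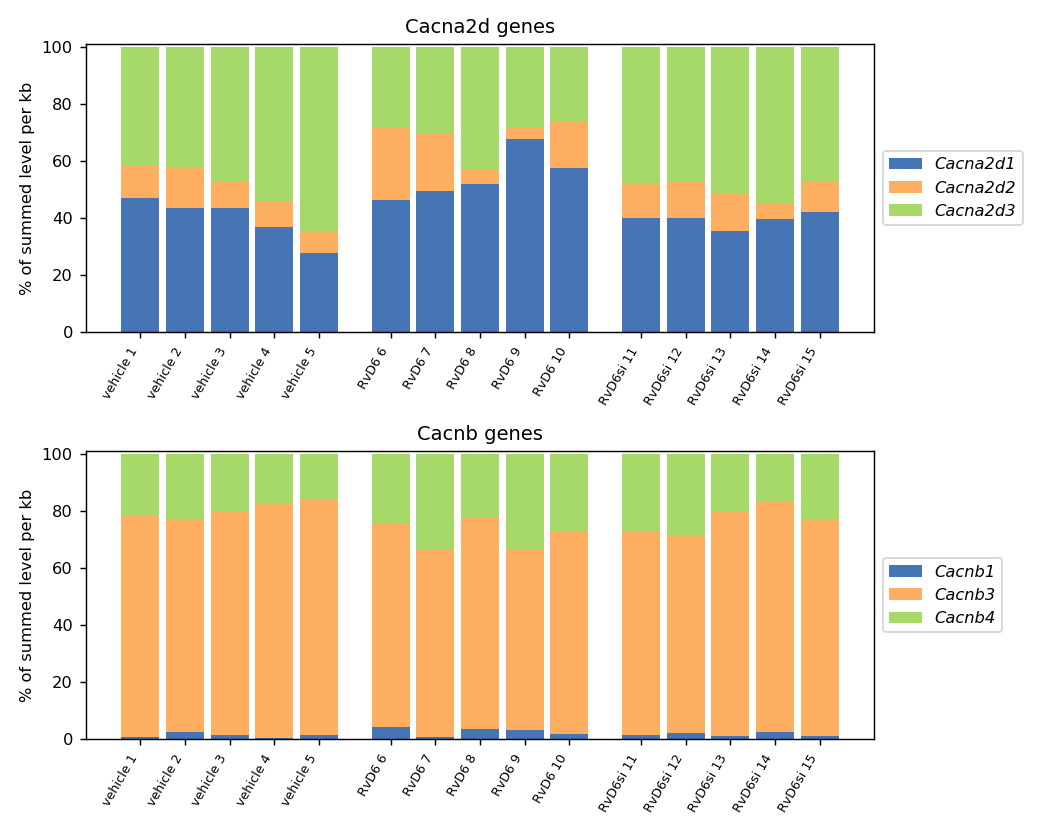
Share of each gene in the summed level per kilobase of the Cacna2d genes (top) and the Cacnb genes (bottom), in % for each of the 15 samples. The Cacna2d3 share is 25.8% to 43.0% in the RvD6 samples, against 41.6% to 64.7% in vehicle and 47.0% to 54.9% in RvD6si samples, and the Cacnb3 share is 63.3% to 73.8% in RvD6 against 74.7% to 82.5% in vehicle samples.

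Cacnb3 gave 1199, 1170.0, 1203, 1584 and 1753 in vehicle, 1054, 951, 1220.3, 795 and 771 in RvD6, and 1190.3, 973, 1349, 1358 and 1226 in RvD6si samples. Only RvD6 replicate 8 lay within the vehicle range. Its log2 fold change in RvD6 against vehicle was -0.54 (SE 0.16, edgeR adjusted p = 0.177), and -0.34 (SE 0.20, adjusted p = 0.957) with the neuron marker score in the model. Its share of the β subunit total was 63.3% to 73.8% in RvD6 and 74.7% to 82.5% in vehicle samples, without overlap, while Cacnb4 took 28.3% ± 5.12 in RvD6 and 19.7% ± 2.79 in vehicle samples (SD, n = 5). The level of Cacnb4 itself had a log2 fold change of 0.19 (adjusted p = 0.604).

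None of the IP3 receptor genes passed the threshold in RvD6. Itpr1, the main IP3 receptor of central neurons, gave 84.4, 156, 81.0, 100.4 and 72.4 in vehicle and 122, 288, 122, 165 and 233 in RvD6 samples. The highest vehicle sample lay above the lowest RvD6 samples, and the log2 fold change was 0.90 (SE 0.30, edgeR adjusted p = 0.211). The RvD6si samples of Itpr1 ranged from 73.4 to 163 (log2 fold change against vehicle 0.27, adjusted p = 0.712). Itpr3 gave 232, 267, 155, 189.9 and 177 in vehicle, 269, 333, 177, 428 and 368 in RvD6, and 351, 387, 269, 216 and 354 in RvD6si samples. It overlapped between all groups, and its log2 fold change against vehicle was 0.61 (SE 0.23, adjusted p = 0.270) for RvD6 and 0.62 (SE 0.23, adjusted p = 0.193) for RvD6si. The RvD6 value of Itpr3 was 0.23 (SE 0.30) with the neuron marker score in the model and 0.33 (SE 0.25) without RvD6 replicates 9 and 10, while the RvD6si value was 0.64 and 0.63. The RvD6 value of Itpr1 was 1.42 (SE 0.42, edgeR adjusted p = 0.473) with the skeletal muscle marker score. It was lower in other settings, at 0.67 after the correction for gene length and 0.73 (SE 0.40) with the neuron marker score. Without RvD6 replicates 9 and 10 it was 0.82 (SE 0.35), and without RvD6 replicate 7 and RvD6si replicate 12 it was 0.66 (SE 0.30). Both genes overlap others on the opposite strand, Gm44040 and Gm44101 for Itpr1 and Itpr3os for Itpr3. Itpr2, Ryr2 and Ryr3 had log2 fold changes of 0.32, 0.29 and 0.50 in RvD6 and 0.08, 0.03 and 0.20 in RvD6si, with adjusted p of at least 0.641.

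None of the Hcn genes was called by edgeR in any of the 3 comparisons. Hcn2, the cyclic AMP-gated channel of nociceptors, gave 75.7, 60.5, 66.6, 60 and 30.4 in vehicle, 57.1, 138, 56.0, 28.5 and 30.2 in RvD6, and 68.9, 83.1, 15.5, 27.9 and 79.6 in RvD6si samples. All groups overlapped. Its log2 fold change was 0.06 (95% interval -0.93 to 1.06) for RvD6 and -0.11 (-1.11 to 0.89) for RvD6si against vehicle. At these counts a rise or a fall inside those intervals remains compatible with the data. Hcn3 was 12.4 to 120.4 in RvD6 and 91.3 to 135 in vehicle samples (log2 fold change -0.78, SE 0.41, adjusted p = 0.420). Hcn4, the pacemaker channel of the heart, was listed at 2.9, 5.3, 16, 0.0 and 7.4 in vehicle, 51.6, 54.1, 4.2, 2.5 and 11.1 in RvD6, and 22.6, 44.7, 4.6, 18.6 and 16.3 in RvD6si samples. At these low counts the groups overlapped, and the log2 fold change of 1.93 in RvD6 had an interval of 0.04 to 3.83 and an adjusted p of 0.360. It was 4.98 (SE 1.26, edgeR adjusted p = 0.409) with the skeletal muscle marker score in the model, and 1.45 to 2.61 when 1 sample at a time was left out. The value with the score is extrapolated, because RvD6 and vehicle samples hardly share values of that score.

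The stereoisomers were compared directly, as 1 pair at the same time and dosing frequency. edgeR called 0 of the 38 channel genes, against 39 of all genes (0.235%), and DESeq2 called 2, Cacna2d3 and Clcn3 (5.26%), against 0.985% of all genes. At an unadjusted p below 0.05, 4 channel genes were higher in RvD6si (10.5%), against 4.18% of all genes, and 1 was lower (2.63%), against 4.64%. For 3 channel genes the samples of the 2 lipids did not overlap (7.89%), against 1.74% of all genes. These 3 were Cacna2d3 and Clcn3, higher in RvD6si, and Cacna1d, lower in RvD6si.

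Cacna2d3 was higher in RvD6si than in RvD6 samples by a log2 fold change of 0.94 (SE 0.20, 95% interval 0.53 to 1.36), with an adjusted p of 0.0577 by edgeR and 0.00171 by DESeq2. edgeR placed it inside the threshold without RvD6 replicate 7 (0.0376), without RvD6si replicate 15 (0.0366) and without vehicle replicate 5 (0.0428). With the neuron marker score as a term it was 0.59 (SE 0.24, adjusted p = 0.682). Clcn3 differed by 0.35 (SE 0.10, 95% interval 0.13 to 0.57), with an adjusted p of 0.260 by edgeR and 0.0141 by DESeq2. Cacna1d, an L-type pore that opens at low voltages, gave 28.9, 36.1, 46.2, 42.1 and 88.6 in RvD6 and 23.7, 28.0, 22.8, 19.7 and 16.3 in RvD6si samples. Its log2 fold change was -1.11 (SE 0.42, adjusted p = 0.414). The vehicle samples of Cacna1d, at 15.1 to 53.0, overlapped both, and its exons overlap Chdh on the opposite strand.

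Cacng5 was 80.5 to 254 in RvD6 and 212 to 297 in RvD6si samples, with overlap (log2 fold change 0.63, SE 0.28, adjusted p = 0.530), and Cacnb3 had a log2 fold change of 0.36 (SE 0.16, adjusted p = 0.531). The Cacng5 value was 0.32 (SE 0.52) with the skeletal muscle marker score. The Cacnb3 value was 0.13 (SE 0.20, edgeR adjusted p = 0.957) with the neuron marker score and 0.20 (SE 0.18) without RvD6 replicates 9 and 10. For other channels the interval of the difference between the stereoisomers was wide or narrow with the counts behind it. It was -1.17 to 0.83 for Hcn2, -0.61 to 0.27 for Cacna2d1, -0.42 to 0.71 for Cacna1b, -0.10 to 0.54 for Clcn4, -0.47 to 0.50 for Itpr3 and -0.13 to 1.67 for Ano1. Each of these intervals includes 0, which does not show that the stereoisomers act alike.

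**Figure D4:**
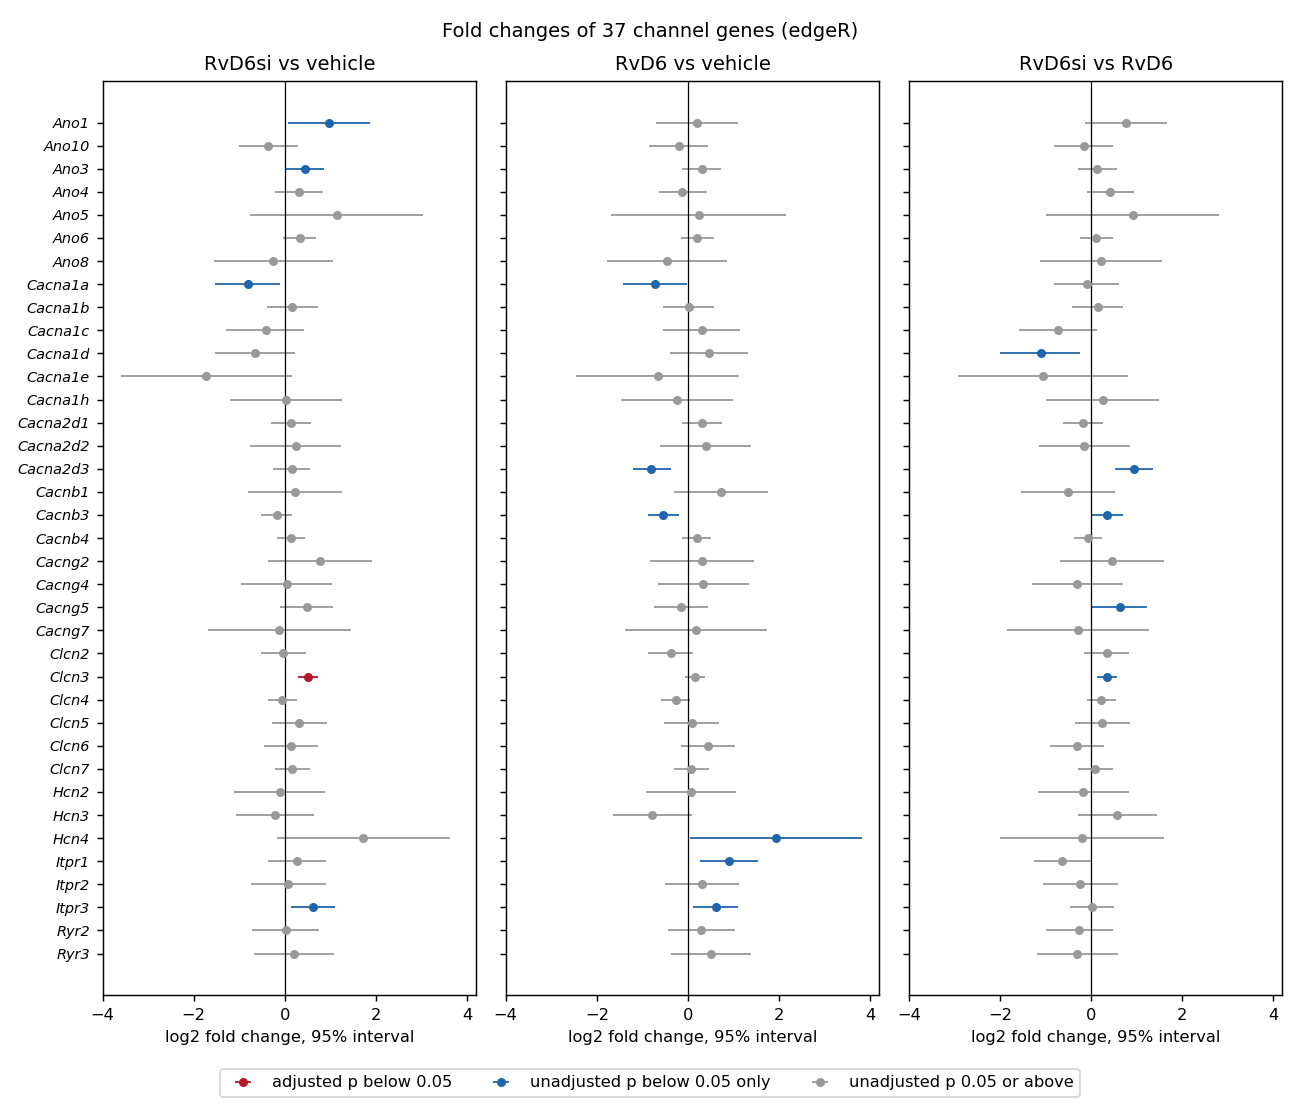
Log2 fold changes of 37 of the 38 channel genes with 95% intervals, from edgeR, with a panel for each lipid against the shared vehicle samples and a panel for RvD6si relative to RvD6. Red marks an adjusted p below 0.05, which Clcn3 alone reached and only in the first panel, blue an unadjusted p below 0.05 and grey all others. Intervals are widest for the genes with few counts, such as Hcn4, Ano5 and Cacna1e.

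The channel genes were also described together, without a test, and the first 2 comparisons share the vehicle samples. In RvD6si against vehicle, 25 of 38 had a positive log2 fold change (65.8%), against 51.2% of all genes, with a median of 0.14 against 0.02. In RvD6 against vehicle the count was also 25, against 52.2% of all genes, with a median of 0.18 against 0.02. The channel genes are long. Their median exonic length was 8261 bases, against 3968 for all genes tested, and 34 of the 38 lay above that median. After the correction for gene length 20 of 38 were positive in RvD6si (52.6%, against 49.9% of all genes) and 21 of 38 in RvD6 (55.3%, against 50%), with medians of 0.01 and 0.05. Between the stereoisomers 20 of 38 were positive (52.6%), against 49.5% of all genes, with a median of 0.03, and 20 of 38 also after that correction, against 51.1%. By family, the median in RvD6si against vehicle was 0.33 for the anoctamins, 0.15 for the CLC genes and -0.54 for the Cacna1 pores. The Cacng median was 0.26, and those of the other families lay between -0.06 and 0.20. Of the pores, Cacna1b, the highest per kb, had a log2 fold change of 0.16 (SE 0.27, edgeR adjusted p = 0.82) and Cacna1h one of 0.02. Cacna1a, Cacna1c, Cacna1d and Cacna1e had -0.81, -0.42, -0.65 and -1.72, the last 2 at mean counts of 37.1 and 29.2. With gene length corrected for, the anoctamin, CLC, Cacng and Cacna1 medians were 0.20, 0.01, 0.22 and -0.67. In RvD6 against vehicle the Itpr and Ryr genes had the highest median, 0.50, which was 0.36 after that correction.

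The regulators and partners of these channels, 112 tested of 123 listed, gave 0 calls by edgeR against vehicle under either lipid, against 0.67% of all genes for RvD6si and 0% for RvD6. In RvD6si against vehicle, 14 (12.5%) were higher and 7 (6.25%) lower at an unadjusted p below 0.05, against 8.69% and 7.3% of all genes. DESeq2 called 5 of the 95 partners that it gave an adjusted p (5.26%, against 7.57% of all genes), among them Atp2c1, Clic4, Mcu and Smdt1. In RvD6 against vehicle, 12 (10.7%) were higher and 14 (12.5%) lower at an unadjusted p below 0.05, against 7.63% and 5.99% of all genes. DESeq2 called 6 of 112 (5.36%, against 1.92%), which were Atp2a3, Clic4, Flna, Stac, Stim1 and Trdn. Between the stereoisomers both tools called 1 of 112 (0.893%), Trdn, against 0.235% of all genes by edgeR and 0.985% by DESeq2. Of the 27 calcium channel partners, 6 (22.2%) were lower in RvD6 at an unadjusted p below 0.05 and 1 (3.7%) was higher. In RvD6si, 1 was higher and 1 lower. Of the 50 genes of calcium stores and intracellular calcium handling, 9 (18%) were higher and 5 (10%) lower in RvD6si at that threshold, and 6 (12%) were higher and 6 lower in RvD6. Of the 27 genes of chloride transport and other anion channels, 4 (14.8%) were higher in RvD6si at that threshold, and 3 (11.1%) were higher and 2 (7.41%) lower in RvD6. Of the 8 HCN partners, 1 (12.5%) was lower in RvD6si and 2 (25%) were higher in RvD6. These shares are read against the shares of all genes given for the same comparison and direction, and they were not tested.

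Clic4, a chloride intracellular channel protein, gave 453, 512, 416, 462 and 422 in vehicle, 626, 790.4, 563, 1324 and 829 in RvD6, and 1029, 610.2, 795, 835 and 729.8 in RvD6si samples. Both lipid groups lay wholly above vehicle. The log2 fold change was 0.82 (SE 0.20, edgeR adjusted p = 0.0637) for RvD6si and 0.85 (SE 0.20, adjusted p = 0.105) for RvD6. Mcu, the pore of the mitochondrial calcium uniporter, was 182 to 211 in RvD6si and 75.7 to 165 in vehicle samples, without overlap (log2 fold change 0.90, SE 0.25, adjusted p = 0.0868). Atp2c1, the calcium pump of the Golgi, also lay wholly above vehicle in RvD6si (log2 fold change 0.75, SE 0.22, adjusted p = 0.100). The RvD6si and vehicle samples did not overlap for 5 of the 112 partners (4.46%), near the 4.88% of all genes. For RvD6 and vehicle this held for 7 of 112 (6.25%), against 3.72% of all genes. Between the stereoisomers it held for 3 of 112 (2.68%), against 1.74%.

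Flna, filamin A, an actin crosslinker listed among the HCN partners, was 493 to 1008 in RvD6 and 146 to 454 in vehicle samples (log2 fold change 1.20, SE 0.28, adjusted p = 0.0983). Trdn, triadin, belongs to the calcium-release complex of striated muscle. It gave 36.7, 36.1, 275, 366 and 44.3 in RvD6, 2.9, 0.0, 2.4, 20.7 and 2.5 in vehicle, and 1.1, 0.0, 12.8, 1.0 and 0.0 in RvD6si samples. The RvD6 samples lay above all others, with a log2 fold change of -5.49 for RvD6si against RvD6 (SE 1.10, edgeR adjusted p = 0.0435). Its 2 highest samples, RvD6 replicates 8 and 9, also had the highest sums of skeletal muscle markers, and the call was kept in 6 of 15 fits that left out 1 sample (adjusted p 0.0312 to 0.159 over the 15). With a skeletal muscle marker score in the model its log2 fold change was -1.08 (adjusted p = 0.939).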

How the data were processed

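Per the file headers and the methods, the authors made Smart-seq2 libraries from oligo-dT-primed, amplified cDNA, aligned reads to GRCm38 with Rsubread, and counted them on GENCODE M22 exons with featureCounts (header 1.5.0-p1, processing notes Subread 1.6.5). The deposited values are raw counts per gene. The strand was not used, so a gene and an overlapping antisense gene cannot be told apart, which concerns 16 of the 38 channel genes. Symbols came from GENCODE M21. All 15 columns were matched to samples.

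Counts were tested over all genes in 1 edgeR 4.0.16 quasi-likelihood fit of 3 groups (TMM, filterByExpr, R 4.3.3), leaving 16567 genes, with Benjamini-Hochberg adjustment at 0.05. Fold changes carry the fit's SE and unadjusted 95% intervals. Levels are counts divided by DESeq2 size factors. The code was tested on simulated data. Alternatives were DESeq2 1.42.0, pairs of groups, RLE normalisation, other filters, removal of each sample's lowess trend on gene length (span 0.3), marker scores as covariates, and leaving out samples. Total counts of 4125962 to 9903396 limit precision for genes with few counts.

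The genes named by rule were Cacna2d1, Hcn2, the highest gene per kb of each family and every gene called by edgeR or DESeq2. For each lipid against vehicle, up to 4 with the largest rise and 4 with the largest fall at an unadjusted p below 0.05 were added. So were those whose samples did not overlap with vehicle at that p. Most are given by sample, but Ano3, Cacng5 and Clcn4 by range or group mean, and Cacna1b by its share and log2 fold change. Partner genes were named where edgeR called them, otherwise the 3 with the smallest p for each lipid. Cacna1d, Hcn3, Cacnb4 and Cacna2d2 were singled out after their values were seen. The channel genes and all lists were chosen with earlier results of these data known. Values of 1 channel gene and 1 partner gene are not reported here, though both count in the totals.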

Additional observations from a re-analysis of the deposited data

Results flagged for a closer look

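In 3 of the 45 groups of 5 samples examined (15 genes in 3 groups), 1 sample lay far from the other 4, by a gap of more than 0.71 of the group's range. For independent, normally distributed values chance alone flags about 1 in 20 groups, and 3 of 45 is not far from that. The 45 groups come from the same 15 samples, so flags in 1 sample are not independent. All 3 flags concerned RvD6 replicate 7. It had 1806.1 normalised counts of Ano3, with the next RvD6 sample at 1048.9, 363.2 of Cacna1b, with the next at 202.0, and 137.9 of Hcn2, with the next at 57.1. The raw counts behind them were 2004, 403 and 153. This sample was the highest of its group for 17 of the 38 channel genes and had the highest slope on gene length among the RvD6 samples (0.083).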

How the results depend on the processing

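No paired analysis was possible because the 15 samples carry the numbers 1 to 15 and no number is shared between groups. Of 1166 refitted fold changes of named channel genes, 1145 kept their side of the threshold, 12 lost a call and 9 gained one. Nearly all of these values lay outside the threshold from the start, so the 1145 say little about stability. The only call was Clcn3 in RvD6si against vehicle, and all 12 losses were of that call. It was kept in 6 of the 15 fits that left out 1 sample. The sign differed in 65 refits, none of which concerned a called value. The channel genes called in RvD6si against vehicle went from 1 to 0 with no filter, with the length trend removed and with the skeletal muscle score as covariate, and ranged from 0 to 1 over the fits without 1 sample. In RvD6 against vehicle they went from 0 to 1 with DESeq2 on all samples and on 2 groups, and stayed at 0 without any 1 sample. Between the stereoisomers they went from 0 to 2 with DESeq2 on all samples, to 1 with DESeq2 on 2 groups and to 1 with no filter (Cacna2d3), and ranged from 0 to 1 without 1 sample. Partner genes called in RvD6si against vehicle went from 0 to 5 with either DESeq2 fit, and to 1 with edgeR on 2 groups, with at least 10 counts in every sample, with the sensory neuron score, without RvD6 replicate 7 and RvD6si replicate 12, and without RvD6 replicates 9 and 10 (range 0 to 2 without 1 sample). In RvD6 against vehicle they went from 0 to 6 and 7 with DESeq2 on all samples and on 2 groups, to 1 with edgeR on 2 groups and to 2 with no filter, and stayed at 0 without any 1 sample. Between the stereoisomers they went from 1 to 2 with DESeq2 on 2 groups, and to 0 with edgeR on 2 groups, with at least 10 counts in every sample, with the length trend removed, with either marker score and with either pair of samples left out (range 0 to 2 without 1 sample). The median log2 fold change of the channel genes between the stereoisomers went from 0.03 to -0.15 with the sensory neuron score. The shares of Ano3, Cacna1b and Itpr3 in their families went from 48.7%, 57.1% and 56.4% to 33.1%, 48.1% and 45.4% with the longest transcript. The neuron score and the omission of 2 samples together were chosen after seeing the data. The cause of these changes was not tested. Depth limits the genes with few counts, such as Hcn4 and Ano5.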

Other observations

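The 12 channel genes below the minimum of 10 mean counts include the T-type pores Cacna1i (0 to 32 counts over the 15 samples) and Cacna1g (0 to 18), the β subunit gene Cacnb2 (0 to 24), the α2δ gene Cacna2d4 (0 to 27), the olfactory anoctamin Ano2 (0 to 21) and the muscle chloride channel Clcn1 (0 to 11). In each of them at least 1 sample had 0 counts. Cacna1f, the L-type pore of photoreceptors, had a mean of 0.533 counts, and Cacng8 of 0.133.

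RvD6si replicate 12 was the highest of its group for 19 of the 38 channel genes, and the median deviation of the channel genes from their mean over all samples was 0.39 there on the log2 scale, against -0.16 in RvD6si replicate 13, which was the lowest of its group for 13 genes. Over all genes tested the medians of these samples were -0.01 and 0.04. In vehicle samples the median deviation of the channel genes was -0.20 to 0.14.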
